A study of Mus musculus with 10 samples.

Results

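The 10 genes described here, Fos, Fosb, Jun, Junb, Egr1, Atf3, Ier2, Ier3, Dusp1 and Klf6, are immediate early response genes. They were chosen by name, as the probe sets whose gene symbol in the array annotation is one of these 10, and each had exactly 1 probe set. They are 10 of 19933 genes tested. Of the 10, Jun was the only one called changed, where 5.61% of all genes were called, and it was lower in Nr1d1 KO liver than in WT liver. Its call was lost in 8 of the 10 fits that left out 1 array.

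Livers of 5 Nr1d1-/- mice (KO) and 5 wild-type mice (WT) were compared on Affymetrix Mouse Gene 1.0 ST arrays, with 1 mouse per array. Replicate numbers were given here in accession order and only name the livers. Nr1d1 encodes Rev-erb alpha, a nuclear receptor that represses transcription in the daily clock. The KO mice, Rev-erb alpha -/-, came from a line crossed back onto C57Bl/6 over 7 generations or more, while the C57Bl/6 WT mice were bought, so genotype and origin cannot be told apart. All mice were males of 10 to 12 weeks on normal chow and on a cycle of 12 h light then 12 h dark, and were taken at ZT10, which is 10 h into the light phase, and no inducing stimulus is named in the labels.

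Immediate early genes are transcribed within minutes of a stimulus, without new protein synthesis, through factors that are already bound or waiting in the cell, such as CREB and the serum response factor with its ternary complex partners. Their mRNAs are short-lived. Many encode transcription factors that act on a second set of genes, and others encode phosphatases that switch the signal off again. In liver they are known for their rapid rise after partial hepatectomy, growth factors, glucagon, feeding and stress.

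The upstream sequences of 4 of these genes are shown because Jun was the gene called changed, Atf3 had the next smallest p, and Fos and Dusp1 carry the cAMP response letters to compare them with. The sequences are the 250 bases before the RefSeq start of the gene (GRCm38.p6), 5′ to 3′ on the strand of the gene. Capitals mark 4 of the 8 motifs searched, TGACGTCA (the cAMP response element), its core TGACG, TGACATCA (the letters of a site known in the JUN promoter as bound by Jun and ATF proteins) and TATAAA (the TATA box), on both strands. A full element also contains the core on each strand.
Jun, chr4:95052223-95052472, minus strand: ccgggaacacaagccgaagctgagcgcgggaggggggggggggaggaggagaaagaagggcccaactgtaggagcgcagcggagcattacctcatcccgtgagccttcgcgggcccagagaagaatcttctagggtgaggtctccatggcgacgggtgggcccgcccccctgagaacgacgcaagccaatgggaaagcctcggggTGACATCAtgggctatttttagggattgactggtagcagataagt
Atf3, chr1:191183334-191183583, minus strand: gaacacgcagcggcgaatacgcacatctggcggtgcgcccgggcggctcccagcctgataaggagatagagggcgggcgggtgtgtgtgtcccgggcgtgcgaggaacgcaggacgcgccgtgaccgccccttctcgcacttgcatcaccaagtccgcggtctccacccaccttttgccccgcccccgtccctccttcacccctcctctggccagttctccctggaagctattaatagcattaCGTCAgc
Fos, chr12:85473640-85473889, plus strand: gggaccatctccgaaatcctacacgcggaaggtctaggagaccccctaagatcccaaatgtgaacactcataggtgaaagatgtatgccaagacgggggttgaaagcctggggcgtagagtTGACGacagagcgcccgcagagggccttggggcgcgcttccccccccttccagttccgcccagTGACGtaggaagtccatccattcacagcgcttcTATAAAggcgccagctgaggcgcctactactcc
Dusp1, chr17:26508473-26508722, minus strand: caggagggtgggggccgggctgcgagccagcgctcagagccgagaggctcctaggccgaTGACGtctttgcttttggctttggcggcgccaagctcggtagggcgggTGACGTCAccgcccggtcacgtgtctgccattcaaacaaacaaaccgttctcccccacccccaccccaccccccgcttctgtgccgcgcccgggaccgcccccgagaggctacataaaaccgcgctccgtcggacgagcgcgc

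The RefSeq table matched 8 of the 10 genes, all but Egr1 and Ier2. The core TGACG was found in 5 of these 8 (Atf3, Dusp1, Fos, Fosb and Junb) and in 17.8% of all 32851 promoter entries in the same window. The full TGACGTCA was found in 1 of 8, Dusp1, where it starts 143 bases before the gene start, and in 1.55% of all entries. TGACATCA was found in 2 of 8, Jun at 45 bases and Klf6 at 119 bases before the start, and in 2.93% of all entries. AGGTCA, the core of the sites that Rev-erb receptors bind, was found in 0 of 8 and in 14.0% of all entries. The E-box CACGTG, the site of the clock activators, was found in 2 of 8, Klf6 and Dusp1 (from 126 bases before the start, left in lower case above), and in 6.02% of all entries. TATAAA was found in 1 of 8, Fos, and in 12.4% of all entries. The AP-1 element TGAGTCA and the CArG box of the serum response factor were each found in 0 of 8, against 4.46% and 1.47% of all entries. These are letter matches in 1 window and were not tested for binding.

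As a check of the tissue, all 7 measured hepatocyte markers lay in the top quartile of gene means, and their summed intensity was 90200 to 94800 in KO and 93100 to 96200 in WT. The only Nr1d1 probe set read 9.92 in KO and 9.78 in WT (log2 intensity), which differed by 0.14 (limma adjusted p = 0.803). The sources used here do not say whether its probes lie in the deleted stretch, so it checks nothing about the labels. Over the whole array 1119 of 19933 genes (5.61%) changed at an adjusted p under 0.05, of which 632 were higher (3.17%) and 487 lower in KO. Immediate early genes are expressed by several liver cell types, and in whole tissue fewer cells of a type and less RNA per cell cannot be told apart. The markers of Kupffer cells and macrophages (0 of 8 called) summed to 3950 to 5290 in KO and 4200 to 6080 in WT. Those of sinusoidal endothelium (0 of 8 called) summed to 7550 to 9430 in KO and 7030 to 8870 in WT, and the neutrophil markers (0 of 7 called, 5 of them with a mean below the lower quartile of gene means) to 390.6 to 450.1 in KO and 396.8 to 476.5 in WT. Of the other marker lists (8 genes of stellate cells, 5 of cholangiocytes, 7 of lymphocytes and 2 of erythroid cells), 1 gene was called, the cholangiocyte factor Sox9, which rose by 0.62 (limma adjusted p = 0.0129, and 0.0666 without the 3 arrays of widest interquartile range). The summed cholangiocyte markers stood at 741 to 945 in KO and 624 to 720 in WT, but the other 4 did not pass, with Krt19 at -0.02, Krt7 at -0.11, Epcam at -0.01 and Cftr at 0.11. The part of other cell types in the results below was not tested.

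Of the 10 immediate early genes, 1 passed the test (limma on log2 values, adjusted p under 0.05 over all genes), against 5.61% of all genes. It was lower in KO, as were 2.44% of all genes, and 0 were higher, against 3.17% of all genes. The other 9 did not pass. At an unadjusted p under 0.05, 2 of the 10 were lower (Jun and Atf3), against 8.4% of all genes. The difference, KO minus WT, was below 0 in 6 of 10 and in 45.9% of all genes, with a median of -0.07 against 0.01 for all genes tested. In none of the 10 did every KO liver lie on one side of every WT liver, while 7% of all genes did so. A count of 1 in 10 is close to the share over all genes.

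**Figure D1:**
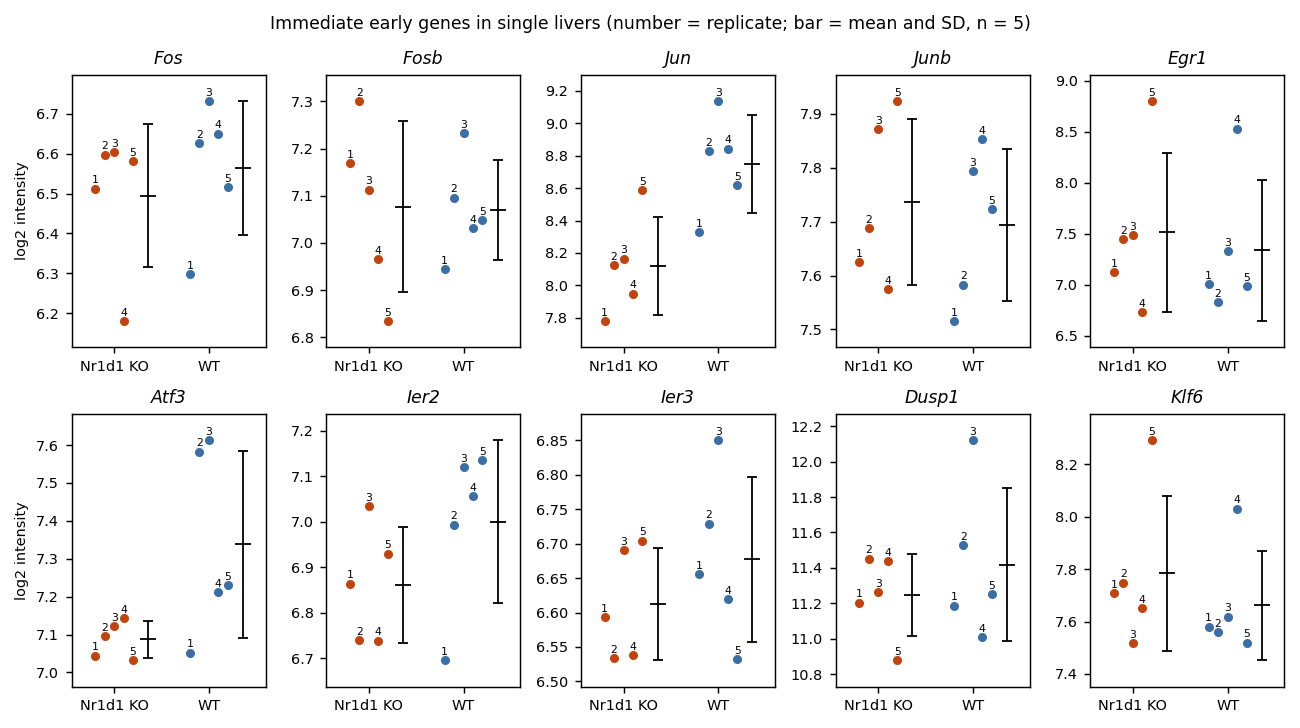
Log2 intensity of the 10 immediate early genes in each liver (numbers are replicates), Nr1d1 KO left of WT, with the mean and SD of 5 livers beside the points; each panel has its own axis. Jun is lower in 4 KO livers than in any WT liver, Egr1 and Klf6 each have 1 high liver per genotype (KO replicate 5 and WT replicate 4), and Atf3 spans 0.11 in KO and 0.56 in WT.

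The Jun and Fos proteins pair through leucine zippers to form AP-1, a dimer that binds TGAGTCA-like sites. Jun, the subunit that can also bind as a dimer with itself and whose deletion impairs hepatocyte proliferation in mice, read 7.78, 8.12, 8.16, 7.95 and 8.59 in KO livers 1 to 5, against 8.33, 8.83, 9.14, 8.84 and 8.62 in WT livers 1 to 5 (log2 intensity). The groups overlapped by 1 liver on each side, with KO replicate 5 above WT replicate 1, and the other 4 KO livers lay below all WT livers. Jun averaged 8.12 ± 0.30 in KO and 8.75 ± 0.30 in WT (SD, n = 5 each). The fitted difference was -0.63 with SE 0.16, at an adjusted p of 0.0360 by limma. This is 0.646 times the WT level, with a 95% interval of 0.509 to 0.820.

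The call of Jun depended on which arrays were in the fit. It was lost without any 1 of KO replicates 1 to 4 or WT replicates 2 to 5 (limma adjusted p 0.0564 to 0.0936), while it was kept without KO replicate 5 (0.0107) or WT replicate 1 (0.0150). It was also kept, at a difference of -0.83, with KO replicates 4 and 5 and WT replicate 1 left out together (0.0132), the 3 arrays whose values had the widest interquartile range. KO replicate 5 and WT replicate 1 are the livers that overlapped for Jun, so leaving them out widens its difference by construction. The difference stayed between -0.75 and -0.53 with single arrays left out, with an unadjusted p of at most 0.00563.

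Junb, the paralog that often opposes Jun on proliferation genes, read 7.63, 7.69, 7.87, 7.57 and 7.92 in KO livers, against 7.52, 7.58, 7.79, 7.85 and 7.72 in WT livers. The groups interleaved throughout, and the difference was 0.04 with SE 0.083 (limma adjusted p = 0.880). Within each array, Jun lay above Junb by 0.15 to 0.66 in KO and by 0.81 to 1.35 in WT (log2 ratio of the 2 probe sets), so that this ratio did not overlap between the genotypes. It averaged 0.38 ± 0.19 in KO and 1.06 ± 0.23 in WT (SD, n = 5 each), a difference of -0.67. The pair of genes was picked with its values in view, so no test is given, and 2.11% of all other genes had a ratio to Junb that did not overlap between genotypes.

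Fos, the partner that needs Jun to bind DNA, read 6.51, 6.60, 6.60, 6.18 and 6.58 in KO livers, against 6.30, 6.63, 6.73, 6.65 and 6.52 in WT livers. KO replicate 4 and WT replicate 1 lay below the rest, and the other 8 livers lay between 6.51 and 6.73. Its difference was -0.07 (SE 0.096, limma adjusted p = 0.820), with a 95% interval of -0.28 to 0.14. Fosb, its close paralog, read 7.17, 7.30, 7.11, 6.96 and 6.83 in KO livers, against 6.94, 7.10, 7.23, 7.03 and 7.05 in WT livers. The KO livers enclosed the WT livers at both ends. The difference was 0.01 (SE 0.084, adjusted p = 0.986), with a 95% interval of -0.18 to 0.19, and its sign turned with the arrays centred on their medians (-0.01) or without any 1 of 5 arrays.

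**Figure D2:**
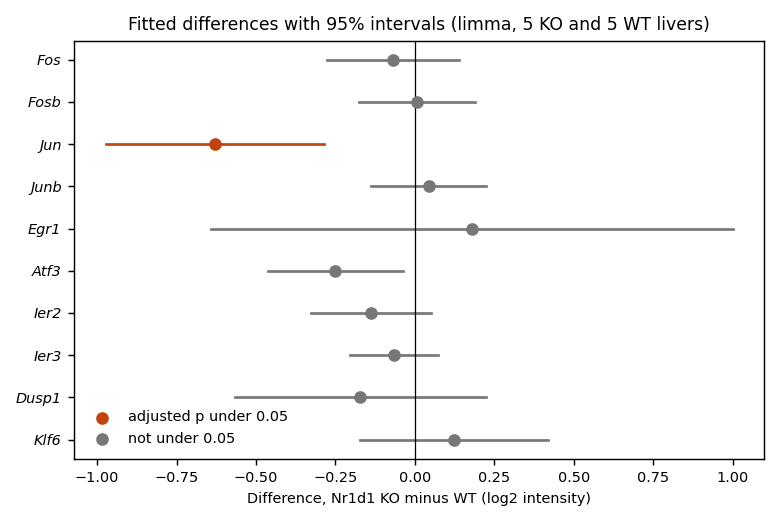
Fitted difference, Nr1d1 KO minus WT (log2 intensity), with its 95% interval for each immediate early gene (limma, 5 livers a genotype). Jun at -0.63 is the one gene called, the interval of Atf3 (-0.46 to -0.04) excludes 0 before adjustment over all genes, and that of Egr1 (-0.64 to 1.00) is the widest of the 10.

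Atf3, a bZIP factor of the ATF/CREB family that is induced by many kinds of cell stress and can pair with Jun, read 7.04, 7.10, 7.12, 7.14 and 7.03 in KO livers, against 7.05, 7.58, 7.61, 7.21 and 7.23 in WT livers. The KO livers lay close together, and 4 of the 5 WT livers were above all of them. The difference was -0.25 with SE 0.098, at an unadjusted p of 0.0245 and an adjusted p of 0.193 (limma), so Atf3 did not pass the test. Over all genes 17.4% had an unadjusted p under 0.05. The adjusted p of Atf3 ranged from 0.0637 to 0.379 over 19 other settings.

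Egr1, a zinc finger factor and one of the first genes to respond to growth factors and glucagon in hepatocytes, varied more between livers of 1 genotype than any other member. It read 7.12, 7.45, 7.48, 6.73 and 8.80 in KO livers, against 7.01, 6.83, 7.33, 8.53 and 6.99 in WT livers. In each genotype 1 liver stood above the rest, KO replicate 5 and WT replicate 4. Its lowest and highest livers differed 4.20-fold in KO and 3.25-fold in WT. The difference was 0.18 with SE 0.38 (limma adjusted p = 0.892), which turned to -0.14 without KO replicate 5, and the interval in fold terms ran from 0.641 to 2.0, so that changes within these bounds are not excluded.

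Klf6, a zinc finger factor of the Krüppel-like family that is expressed in hepatocytes and stellate cells, was high in the same 2 livers. It read 7.71, 7.75, 7.52, 7.65 and 8.29 in KO livers, against 7.58, 7.56, 7.62, 8.03 and 7.52 in WT livers. Outside KO replicate 5 and WT replicate 4 no value exceeded 7.75. The difference was 0.12 with SE 0.14 (limma adjusted p = 0.763), and -0.01 without KO replicate 5.

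**Figure D3:**
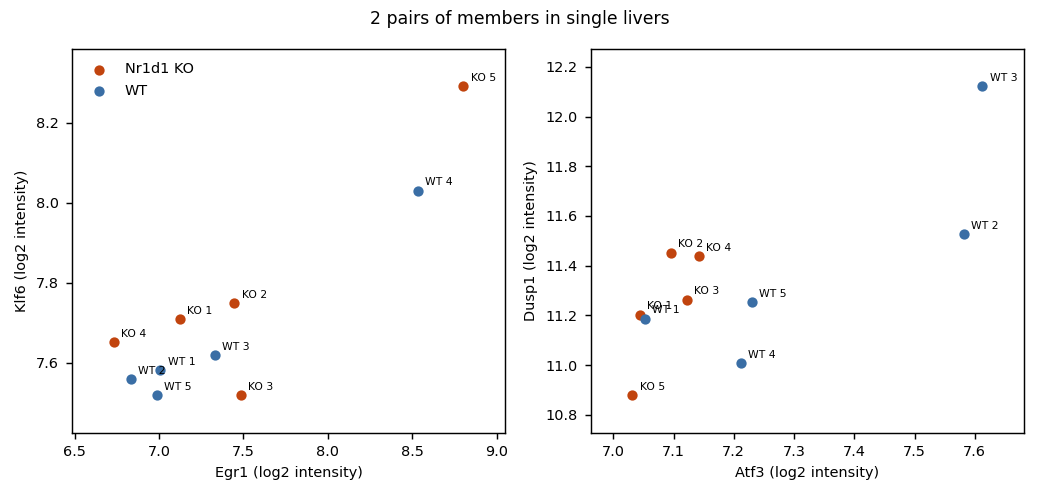
Klf6 against Egr1 (left) and Dusp1 against Atf3 (right) in the 10 single livers (log2 intensity, Nr1d1 KO and WT in separate colours). KO replicate 5 and WT replicate 4 stand apart in Egr1 (8.80 and 8.53) and Klf6 (8.29 and 8.03), while WT replicates 2 and 3 hold the 2 highest values of both Atf3 and Dusp1.

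Dusp1, the dual-specificity phosphatase that removes the activating phosphates from p38, JNK and ERK kinases, read 11.20, 11.45, 11.26, 11.44 and 10.88 in KO livers, against 11.19, 11.53, 12.12, 11.01 and 11.25 in WT livers. WT replicate 3 lay above all others, and KO replicate 5, the highest KO liver for Egr1, Klf6, Jun, Junb and Ier3, was the lowest for Dusp1. The difference was -0.17 with SE 0.18 (limma adjusted p = 0.746), and it was 0.00 without WT replicate 3.

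Ier2 encodes a small nuclear protein with roles in transcription. It read 6.86, 6.74, 7.03, 6.74 and 6.93 in KO livers, against 6.70, 6.99, 7.12, 7.06 and 7.13 in WT livers. Of the WT livers, 3 were above all KO livers and 1, WT replicate 1, was below all of them. The difference was -0.14 with SE 0.087 (limma adjusted p = 0.493). Ier3, which encodes a stress-responsive protein that modulates ERK and NF-kappaB signalling and cell survival, read 6.59, 6.53, 6.69, 6.54 and 6.70 in KO livers, against 6.66, 6.73, 6.85, 6.62 and 6.53 in WT livers, with a difference of -0.07 (SE 0.064, adjusted p = 0.716). Its KO range lay within its WT range.

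None of the 100 values of the 10 genes lay below the lower quartile of its array, which was between 6.00 and 6.11 on the log2 scale. No calls of detection came with the values, so how far each gene stood above background is unknown, and the number of arrays limits the precision.

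The spread between livers of 1 genotype was large for most of these genes. The SD was above the median SD of all genes in 8 of 10 genes in KO and in 10 of 10 in WT. For Egr1 the SD was 0.78 in KO and 0.69 in WT, larger than in 99.9% of genes in KO and 99.8% in WT. For Jun it was 0.30 in both genotypes, larger than in 98.4% of genes in KO and 97.6% in WT. Atf3 differed most in this respect, with an SD of 0.048 in KO, larger than in 11.0% of genes, and of 0.25 in WT, larger than in 95.7% of genes. The SD was larger in KO in 6 of the 10 genes and in 51.3% of all genes. A limma test of the absolute deviations from the genotype mean called 0 of 19933 genes different in spread (9.79% had an unadjusted p under 0.05), with Atf3 at an adjusted p of 0.256. The unadjusted count depended on the centre used, at 1951 genes with the genotype mean and 319 with the genotype median. At an unadjusted p under 0.05 with the genotype mean, 0 of the 10 were wider in KO, against 4.57% of all genes. Atf3 alone of the 10 was wider in WT, as were 1040 of all 19933 genes, and 1 in 10 is close to that share. In simulated data the test with the genotype mean recovered 0% of genes made 16 times wider in KO, so its count of 0 says nothing about equal spread.

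**Figure D4:**
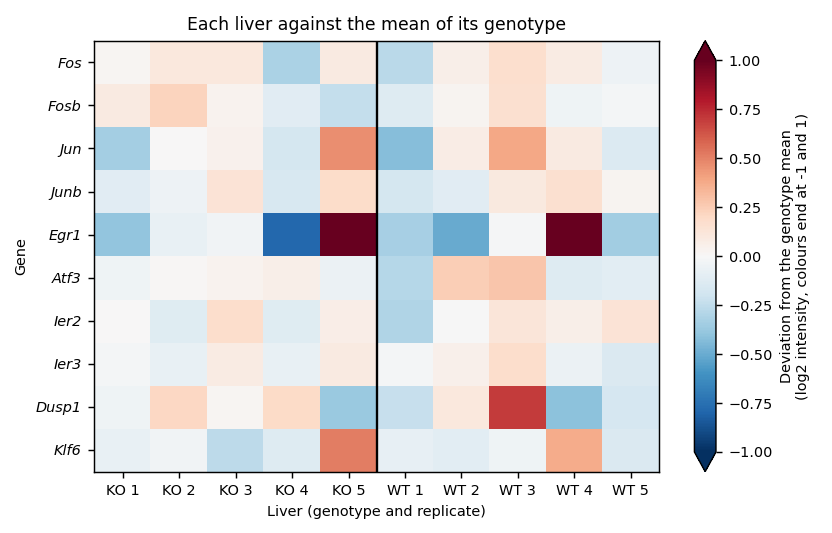
Deviation of each liver from the mean of its genotype (log2 intensity, colour) for the 10 immediate early genes, KO livers left of the line and WT livers right of it. WT replicate 1 is below its genotype mean in all 10 genes and WT replicate 3 above it in 8, while KO replicate 5 is high for Egr1, Klf6 and Jun and low for Dusp1 and Fosb.

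Livers of 1 genotype tended to be high or low for several of the genes together. KO replicate 5 was the highest KO liver for 5 of the 10 genes and the lowest for 3, and KO replicate 4 was the lowest for 4. WT replicate 3 was the highest WT liver for 6 of the 10, and WT replicate 1 was the lowest for 6 and below the WT mean for all 10. The shares of all genes for which these livers were highest, lowest or below the mean were not computed, so these counts are not particular to the 10 genes. Averaged over the 10 genes, deviations from the genotype mean ran from -0.16 (replicate 4) to 0.20 (replicate 5) in KO and from -0.22 (replicate 1) to 0.20 (replicate 3) in WT. The genes were not scaled for this mean, so the most variable weigh most. Egr1 deviated most in KO replicates 4 (-0.79) and 5 (1.285). KO replicates 4 and 5 and WT replicate 1 were also the 3 arrays of widest interquartile range, at 2.96, 2.99 and 2.98 on the log2 scale, against 2.80 to 2.94 for the other 7. The array medians ran from 7.29 (replicate 5) to 7.37 (replicate 3) in KO and from 7.28 (replicate 1) to 7.36 (replicate 3) in WT. The part of these array properties in the deviations was not tested. With deviations from the genotype mean correlated over the 10 arrays, 17 of the 45 pairs of these genes had a Pearson r over 0.5, against 13.3% of all gene pairs, and 15 did so after quantile normalization, a step chosen after seeing the data. The pairs share the same 10 arrays and single high livers, so these counts are a description.

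By the same measure, the 5 genes whose deviations were most like the unscaled mean of the 10 were Cysrt1 (r = 0.907), Dvl2 (0.881), Acvr2b (0.876), Heyl (0.871) and Phlda3 (0.867). They are the highest of 9831 genes outside the lists whose mean was at or above the median, over 10 arrays. None of these 5 passed the KO against WT test, with differences from -0.05 to 0.09.

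Described beside these genes were 6 related lists, and 14 of their 124 tested genes were called, 6 higher and 8 lower in KO, where 5.61% of all genes were called, 3.17% higher and 2.44% lower. These shares of all genes are the background for each list below. Of the 14, the calls of Atf5, Myc and Btg1 held in all 19 other settings, while each of the other 11 was lost without at least 1 of the arrays. The share of all called genes that lose a call in this way was not computed. Without the 3 arrays of widest interquartile range, Atf4, Gadd45a, Plk2, Egfr, Spry1, Klf9, Klf12 and Klf13 also lost their calls (limma adjusted p 0.0620 to 0.261). Plk2 also lost its call with centring and with quantile normalization, Klf13 with centring, Plk3 with trended robust variances (0.0627), and Phlda1 with all probe sets, quantile normalization, a pseudocount of 16 or trended robust variances.

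Among 15 other AP-1 and ATF subunits, Atf5, a bZIP factor abundant in liver, rose by 0.58 and Atf4, the activator of the amino acid and integrated stress responses, fell by 0.24, and 13 did not pass. The list's median was -0.01. Atf5 read 8.88 to 9.44 in KO and 8.51 to 8.72 in WT, without overlap. Fosl1 (0.05), Fosl2 (-0.06) and Jund (-0.12), the remaining Fos and Jun relatives, did not pass. Atf4 lost its call without any 1 of KO replicates 2, 3 and 5 and WT replicates 2, 3 and 5 (limma adjusted p up to 0.0665).

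Among 20 other immediate early transcription factors, Myc was the only one called, and the list's median was -0.03. Myc, a driver of growth and proliferation, read 7.91, 7.34, 7.54, 7.31 and 7.95 in KO livers, against 7.86, 9.50, 9.55, 10.36 and 9.24 in WT livers. WT replicate 1 lay within the range of the KO livers, as it did for Jun, and the other 4 WT livers were above all KO livers. Its limma difference was -1.69 (SE 0.35, adjusted p = 0.0130). The relatives of Egr1, Egr2 (0.02), Egr3 (-0.03) and Egr4 (-0.02), did not pass, nor did the orphan receptors Nr4a1 (0.02), Nr4a2 (-0.19) and Nr4a3 (-0.06).

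Among 33 other immediate early regulators and secreted products, 1 rose and 5 fell, and 27 did not pass, with a list median of -0.04. Btg1, an antiproliferative gene, rose by 0.69 (limma adjusted p = 0.00191), while its paralog Btg2 fell by 0.59. The polo-like kinases Plk3 and Plk2 fell by 1.34 and 0.43, Phlda1 fell by 1.06 and the DNA damage response gene Gadd45a fell by 0.20. Plk3 read 9.67 to 10.82 in KO and 10.51 to 12.20 in WT, with WT replicate 1 again the lowest WT liver. The call was lost for Btg2 without KO replicate 2 or 3 (adjusted p up to 0.0548), for Plk3 without KO replicate 2, 3 or 4 (up to 0.0552), and for Phlda1 without any 1 array other than WT replicate 1 (up to 0.116). It was also lost for Plk2 without any 1 of KO replicates 1 to 4 and WT replicates 1 and 4 (up to 0.0888) and for Gadd45a without any 1 of KO replicates 2, 3 and 5 and WT replicates 1, 2 and 5 (up to 0.0602).

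**Figure D5:**
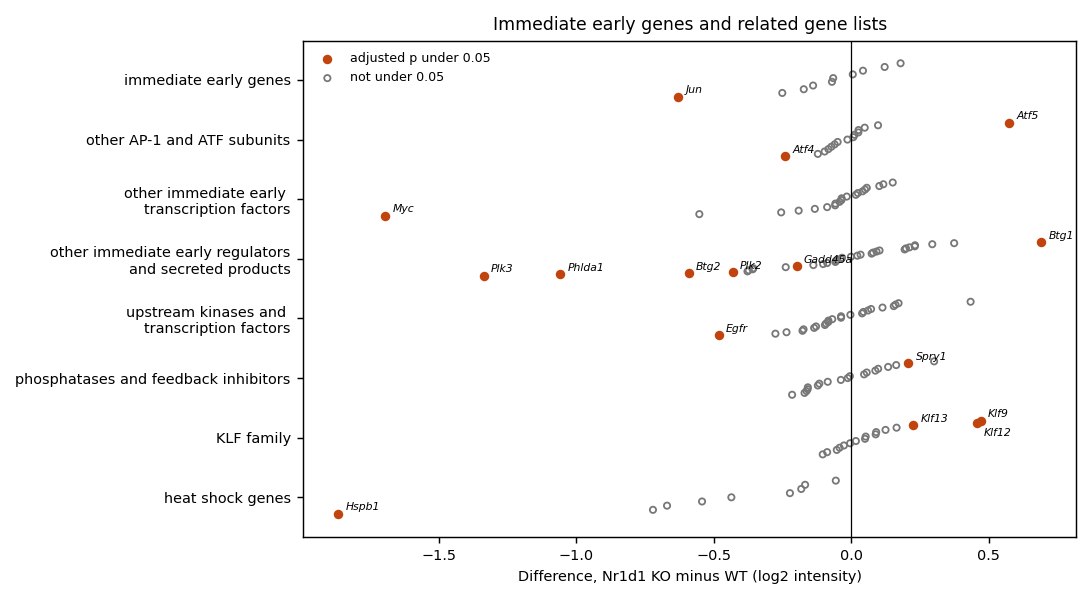
Difference, Nr1d1 KO minus WT (log2 intensity), of every tested gene of the immediate early genes and 7 related lists; filled points have a limma adjusted p under 0.05 and are named, open points do not. Jun (-0.63) is the one filled point among the immediate early genes, and the 9 heat shock genes all lie below 0 with Hspb1 (-1.87) filled.

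Upstream of these genes, 1 of 24 tested kinases and transcription factors passed. Egfr, the receptor for epidermal growth factor, fell by 0.48 (SE 0.11, limma adjusted p = 0.0238), at 12.28 to 12.76 in KO and 12.76 to 13.20 in WT. That call was lost without any 1 of KO replicates 1 and 4 and WT replicates 1 to 3 (adjusted p up to 0.0660). The CREB gene Creb1 differed by -0.04 and Mapk8, which encodes the Jun kinase JNK1, by -0.13, and neither passed. Srf, the serum response factor gene, stood in the transcription factor list at 0.04.

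Among 19 phosphatases and feedback inhibitors, Spry1, an inhibitor of receptor tyrosine kinase signalling, rose by 0.21 and 18 did not pass. The 11 relatives of Dusp1 in that list ran from -0.21 (Dusp4) to 0.30 (Dusp16, limma adjusted p = 0.0584), none called. Among 16 relatives of Klf6, Klf9 rose by 0.47, Klf12 by 0.46 and Klf13 by 0.23, and 13 did not pass, Klf2 (0.05), Klf4 (-0.04) and Klf10 (-0.09), which the transcription factor list also holds, among them. Spry1 lost its call without any 1 of KO replicates 1 to 4 and WT replicates 1, 2 and 4 (adjusted p up to 0.0694), Klf9 without any 1 of KO replicates 3 to 5 and WT replicates 1 and 5 (up to 0.0725), Klf12 without KO replicate 4 or 5 or WT replicate 2 (up to 0.0621), and Klf13 without any 1 array other than KO replicate 3 or WT replicate 3 (up to 0.0974). Without the 3 arrays of widest interquartile range Klf9 and Klf12 differed by 0.29 and 0.30.

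Heat shock genes were read beside Atf3 and Jun, since they are also induced within minutes of stress. Their differences were below 0 in 9 of 9 tested genes and in 45.9% of all genes, with Hspb1, a small heat shock protein gene, called at -1.87 (limma adjusted p = 0.00780, and 0.0885 without the 3 arrays of widest interquartile range) and the other 8 not passing. Hspb1 read 8.43, 8.27, 8.26, 8.32 and 8.73 in KO livers, against 10.62, 11.67, 10.23, 9.58 and 9.23 in WT livers. WT replicate 1, the lowest WT liver for Jun and Atf3, was the second highest for Hspb1. The WT livers were not uniform over the list. WT replicate 4 lay above all KO livers only for Hspb1. It was the lowest of all livers for Hspa1a (7.70), Hsph1 (8.87) and Dnajb1 (8.27). The SD was larger in WT in 9 of 9 heat shock genes, while it was larger in KO in 51.3% of all genes. Whether the heat shock genes and Jun moved for a shared reason was not tested.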

How the data were processed

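Total RNA of 10 livers was hybridized to Mouse Gene 1.0 ST arrays, 5 per genotype. The authors deposited 1 table of normalized intensity values for 27541 probe sets, named as RMA and Partek output without versions per the submitters' processing notes. The values ran from 8.93 to 18280 on a linear scale, so log2 was taken first. The array annotation gave 1 symbol to 21631 probe sets, several to 1317 and none to 4593. Those with 1 symbol were tested, the probe set of highest mean standing for each of 951 genes with more, which left 19933 genes.

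The genotypes were compared by limma 3.58.1 (R 4.3.3; lmFit and eBayes, two-sided, no covariates), with Benjamini-Hochberg adjustment over all genes and an adjusted p under 0.05 as a call. The p-values rest on the variation among these single mice. In simulated data of 19933 genes, 83.6% of genes changed by 0.5 and 98.5% of those changed by 1 on the log2 scale were recovered, with 1.57% false calls. The changed genes were drawn at random from all genes. Most of the 10 immediate early genes varied more than the usual gene, so these rates cannot be carried over to them. Spread was tested by the same fit on absolute deviations from the genotype mean. The genes and lists were chosen with earlier results of these data known, and the promoter motifs and the ratio of Jun to Junb after seeing their values. Named were all 10 members, every called gene of the other lists, and the 5 genes of most similar deviations, outside the lists and at or above the median mean. Uncalled paralogs and upstream genes named beside them were picked after their values were seen. Of 216 list entries 198 were tested. List symbols were updated through a RefSeq gene table, 5 by synonym. Tried as alternatives were probe set summaries, a filter at the 25th percentile, centring, quantile normalization, a pseudocount of 16, array weights, trended robust variances, and leaving out arrays.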

Additional observations from a re-analysis of the deposited data

Results flagged for a closer look

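Of the 20 sets of 5 livers formed by the 10 genes and both genotypes, 2 held a liver far from the others, where chance gives about 1 in 20. Far means a Dixon ratio, the gap to the nearest liver over the range of the set, above 0.71. The sets share the same livers, so the chance count is only a guide. Fos was lowest in KO replicate 4 at 6.18 (log2 intensity), with the next KO liver at 6.51. Klf6 was highest in WT replicate 4 at 8.03, with the next WT liver at 7.62. Egr1 in WT replicate 4 (ratio 0.707) and Klf6 in KO replicate 5 (0.702) came just short of the limit. KO replicate 4 was among the 3 arrays of widest interquartile range, and WT replicate 4 was not.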

How the results depend on the processing

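Jun kept its direction in all 19 other settings and its call in the 9 that did not leave out a single array (limma adjusted p up to 0.0469). Those 9 include the fit without the 3 arrays of widest interquartile range, among which are the livers that overlapped for Jun. The call of Jun was kept in 2 of 10 settings that left out 1 array. The count of the 10 genes called was therefore 0 to 1 when single arrays were left out. The other 9 genes gained a call in 0 of 171 combinations of gene and setting (lowest limma adjusted p 0.0637). The sign of a difference turned in 16 of them, and the cause was not tested. Without the 3 arrays of widest interquartile range Junb was at -0.0096, Egr1 at -0.069 and Klf6 at -0.023. Fosb was at -0.0056 with centring and at -0.0019 with quantile normalization. With single arrays left out the differences ran from -0.14 to 0.0089 for Fos, -0.050 to 0.066 for Fosb, -0.0037 to 0.084 for Junb, -0.14 to 0.48 for Egr1, -0.28 to 0.0032 for Dusp1 and -0.0050 to 0.21 for Klf6. The number of genes changed in the whole table, 1119 with all arrays, was 805 to 1248 with single arrays left out. Only the fit without WT replicate 4 exceeded 1119. It was 527 without the 3 arrays of widest interquartile range. A fit of fewer arrays has less power, and the part of this in a lost call was not tested. Of the 14 called genes of the related lists, 11 also lost their call without at least 1 array, and 3 kept it in all settings. The number of genes called different in spread was 8 without those 3 arrays, 0 to 100 with single arrays left out (57 without WT replicate 1 and 100 without WT replicate 3), and 14 on log2 deviations, a setting chosen after seeing the data in which 20.5% of calls in simulated data were false. The adjusted p of Atf3 in that test was 0.0266 without WT replicate 1 and 0.0761 to 0.555 in the other settings, except 0.9997 with deviations from the genotype median. No paired analysis was possible because the labels give no replicate numbers shared between the genotypes.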

Other observations

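KO replicate 5 and WT replicate 4, the 2 livers of highest Egr1 and Klf6, were also both the highest of their genotype in 758 of 19933 genes. They were picked for Egr1 and Klf6 after the values were seen, and no other pair of livers was compared. Any named pair, 1 liver from each genotype, is highest in many genes by chance. The count of 758 was not set against that share and shows no link between these livers. In 12 of 19933 genes (0.0602%) both livers lay more than 0.4 on the log2 scale above every other liver of their genotype. Egr1 and Klf6 are among these. Another is Pdk4, the pyruvate dehydrogenase kinase that is induced in fasting, at 8.25, 8.35, 9.17, 8.29 and 10.05 in KO livers 1 to 5, against 7.60, 7.17, 7.03, 9.27 and 7.82 in WT livers 1 to 5. Depp1, a known target of FOXO factors, read 8.52, 9.17, 9.67, 8.66 and 10.47 in KO livers, against 8.64, 7.98, 8.14, 9.79 and 7.89 in WT livers. Txnip, which encodes a glucose-responsive thioredoxin-binding protein, read 11.35 in KO replicate 5 and at most 10.60 in the other KO livers, against 10.75 in WT replicate 4 and at most 10.30 in the other WT livers. Mir107, Arrdc3, Crebrf, Map3k13, Tcp11l2, Ypel2 and Meiob were also among the 12. The genes whose values are printed were picked from the 12 after they were seen. The sources used here do not give the feeding state of single mice, and a part of feeding was not tested.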
